A study of Mus musculus with 12 samples.

Results

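Gcnt1, B3gnt5 and B4galt5 encode glycosyltransferases, enzymes of the Golgi that add single sugars to growing glycans, and they are 3 of the 8267 genes that could be named on these arrays. The members were chosen from earlier results of the same data, in which each had differed from control after BMP6, so their levels and differences are given here as a description, and no p-value is attached to them. The cells were MECs, an intraembryonic endothelial line of the mouse, and their RNA was hybridised to 12 arrays with 2 colours, in 4 groups of 3. The groups were mock-treated control cells and cells treated with BMP6, a bone morphogenetic protein that signals through SMAD proteins, for 4, 12 or 24 h. The labels give no dose of BMP6 and no time for the controls, and describe the triplicates as independent biological replications of a cell line. Each value is the log ratio of the cells (Cy5) to a universal mouse reference RNA (Cy3), read here as log2 and as cells over reference, although the sources used here give neither. If the sign ran the other way, higher and lower would trade places throughout, and with a natural logarithm each fold would be larger (1.63 in place of 1.4 for B4galt5 at 4 h).

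Glycans on cell-surface proteins and lipids are built stepwise, each enzyme using the product of another. Gcnt1 makes the branch that turns a core 1 into a core 2 O-glycan on mucin-type proteins, and core 2 branches are known to carry ligands of the selectins on leukocytes and endothelium. B4galt5 adds galactose to glucosylceramide and is a main lactosylceramide synthase of the mouse. B3gnt5 adds N-acetylglucosamine to lactosylceramide and thereby starts the lacto- and neolacto-series glycosphingolipids, so the products of B4galt5 are the acceptors of B3gnt5.

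Each of the 3 genes had 1 probe, so no second probe could be set beside it, and each name rests on a placement of the probes on the array that was inferred from the data. In that placement the first 2 probes of a gene correlated across 1831 genes with r = 0.471, against 0.021 in the deposited order (genes are not independent replicates). The array medians lay between -0.044 and 0.002. Same-numbered arrays of different groups deviated together from their group means in all 18 pairs (r from 0.446 to 0.756), and arrays of other numbers did not (r from -0.561 to 0.037). The low r of other numbers follows in part from the centring, since deviations cancel within a group. The replicate number held 55% of the sum of squares over all genes and the treatment group 23.4%. Differences are therefore given within numbers, with an SE from a fit without the number (unpaired) and one with it as a block (paired). The labelled cell type was checked on 5 endothelial markers, those measured of 14 listed. Their mean level was below the reference RNA on all 12 arrays. It ranged from -1.064 to -1.008 in controls, -1.12 to -1.003 at 4 h, -1.25 to -1.06 at 12 h and -1.34 to -1.09 at 24 h. The 24 h arrays thus lay wholly below the controls. At 4 h, 2 of the 5 markers averaged above control and 3 below, and 1 was called higher in the paired fit. All 5 averaged below control at 12 and 24 h (0 called). The mean of 5 fibroblast markers ranged from 0.06 to 0.51 in controls, -0.18 to 0.32 at 4 h, -0.08 to 0.28 at 12 h and -0.02 to 0.39 at 24 h, and all 5 lay below control at each time (2, 1 and 0 called in the paired fit). The mean of 3 blood cell markers at 24 h (-0.75 to -0.62) also lay wholly below that in controls (-0.59 to -0.44). In controls the mean of 6 epithelial markers ranged from -1.47 to -1.2, below that of the endothelial markers. The mean of 5 smooth muscle markers ranged from -0.70 to -0.63 in controls, above that of the endothelial markers. At 4 h, 4 of 5 smooth muscle markers averaged above control (1 called higher in the paired fit), as did 5 of 6 epithelial markers (0 called). At 24 h, 3 of the 5 and 3 of the 6 did (0 called). Their part in the results was not tested. The BMP-responsive inhibitors of differentiation Id1, Id2 and Id3 stood 1.07, 1.19 and 0.92 above control on the log2 scale at 24 h (paired adjusted p 0.00168, 0.00869 and 0.00168 in limma; unpaired 1, 0.924 and 0.924). They belong to a list of BMP target genes of which 9 were measured. At 24 h, 6 of the 9 averaged above control and 3 below, with a median difference of 0.04. Only Id1, Id2 and Id3 were called in the paired fit.

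On build GRCm38.p6, Gcnt1 lies at chr19:17326141-17372844, B3gnt5 at chr16:19760192-19772760 and B4galt5 at chr2:167298444-167349178. A start-site window of each of the 3 genes is shown because BMP signals reach genes through SMAD proteins. Each window shows what letters lie at that start. The windows come from RefSeq (build GRCm38.p6, 250 bases before to 50 after the annotated start) and are printed 5′ to 3′ on the strand of the gene, with motif letters in capitals. All 3 genes matched, with 5 windows in all: 3 for Gcnt1 and 1 for each of the others. The B4galt5 window (chr2:167349129-167349428, minus strand) was 75% G and C with 31 CG pairs, and held none of the 7 motifs searched.
B4galt5: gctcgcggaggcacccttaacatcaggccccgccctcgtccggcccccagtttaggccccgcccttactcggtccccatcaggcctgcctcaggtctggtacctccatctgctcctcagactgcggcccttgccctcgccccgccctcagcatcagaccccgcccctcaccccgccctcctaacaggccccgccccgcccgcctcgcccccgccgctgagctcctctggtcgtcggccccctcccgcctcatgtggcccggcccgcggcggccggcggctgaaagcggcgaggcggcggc
The B3gnt5 window (chr16:19759984-19760283, plus strand) was 53.3% G and C and held CAGACA, a SMAD box, on the opposite strand (from base 41, in capitals as read on the printed strand).
B3gnt5: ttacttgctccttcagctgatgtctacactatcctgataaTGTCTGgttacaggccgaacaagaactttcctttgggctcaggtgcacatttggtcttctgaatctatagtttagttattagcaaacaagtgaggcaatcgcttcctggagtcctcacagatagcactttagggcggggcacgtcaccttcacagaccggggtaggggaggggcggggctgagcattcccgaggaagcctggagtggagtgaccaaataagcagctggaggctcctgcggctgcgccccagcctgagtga
The second Gcnt1 window (chr19:17356618-17356917, minus strand) was 58.7% G and C and held GGCGCC, a GC-rich SMAD motif, from base 152.
Gcnt1: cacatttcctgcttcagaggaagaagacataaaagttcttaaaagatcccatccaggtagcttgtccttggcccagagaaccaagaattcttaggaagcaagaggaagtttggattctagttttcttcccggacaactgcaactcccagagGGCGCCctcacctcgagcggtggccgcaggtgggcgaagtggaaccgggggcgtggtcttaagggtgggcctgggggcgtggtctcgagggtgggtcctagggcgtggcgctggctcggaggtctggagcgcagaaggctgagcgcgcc
The other Gcnt1 windows are not printed, and each held CAGACA and no GGCGCC. They were the first (chr19:17372795-17373094, 40.7% G and C), at the outer end of the span given for the gene, and the third (52% G and C). The printed window lies within that span. The 7 motifs, searched on both strands, were GGCGCC (in 11.9% of 32851 windows of the same length), GTCTAGAC (0.213%), CAGACA (21%), the AP-1 motif TGACTCA (5.2%), the CRE motif TGACGTCA (1.79%), an NF-kappaB motif (0.155%) and the E-box CACGTG (7.15%). No match overlapped another in these windows, and a match or its absence is a description of letters only.

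Gcnt1 was lower in BMP6-treated cells than in the same-numbered control at all 3 times. Its log2 ratios on replicates 1, 2 and 3 were -0.61, 0.49 and 1.21 in control cells. They were -1.23, 0.06 and 0.41 after 4 h. After 12 h they were -1.52, -0.22 and 0.63, and after 24 h -0.84, -0.03 and 0.88. The groups overlapped widely, and replicate 1 was the lowest and replicate 3 the highest array in every group. Within numbers, Gcnt1 differed from control by -0.61, -0.44 and -0.80 at 4 h, by -0.91, -0.71 and -0.59 at 12 h, and by -0.23, -0.53 and -0.34 at 24 h. The mean difference was -0.62 at 4 h, -0.74 at 12 h and -0.37 at 24 h, or 0.652, 0.6 and 0.776 of the control level, with an SE of 0.11 in the paired and 0.65 in the unpaired fit. The 3 comparisons share the same controls. A difference below control in 3 of 3 pairs was shared by 20.2% of all genes at 4 h, 17.5% at 12 h and 14.6% at 24 h. Centred on the mean of its number, Gcnt1 was nearly the same on the 3 control arrays (0.44, 0.42 and 0.43), and every treated array lay below them. These centred values rest on the same differences within numbers, so they add no separate support. The share of all genes that separate in this way after centring was not computed. Ranked from the lowest mean difference of 8267 genes, Gcnt1 was at 15 at 4 h, 9 at 12 h and 46 at 24 h. The 24 h arrays differed from the same-numbered 12 h arrays by 0.68, 0.18 and 0.25, a mean of 0.37 (paired SE 0.11). Neither fit called this difference at an adjusted p under 0.05. The choice of members used these arrays, so nothing is read from that.

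B4galt5 was higher than control after 4 h of BMP6 and not at the later times. Its log2 ratios on replicates 1, 2 and 3 were 0.80, 1.59 and 2.10 in control cells. They were 1.17, 2.15 and 2.64 after 4 h. After 12 h they were 0.75, 1.49 and 1.91, and after 24 h 0.76, 1.60 and 1.93. The groups overlapped, and again replicate 1 was the lowest and replicate 3 the highest array of every group. Within numbers, B4galt5 stood above control by 0.37, 0.56 and 0.54 at 4 h, a mean of 0.49 (1.4-fold, SE 0.064 paired and 0.45 unpaired). At 12 h the 3 differences were -0.05, -0.11 and -0.19, with a mean of -0.12, and at 24 h they were -0.03, 0.005 and -0.17, with a mean of -0.07. Of the 3 members, 0 lay above control in 3 of 3 pairs at 24 h, as 13.7% of all genes did. Being above control in 3 of 3 pairs at 4 h was shared by 14.7% of all genes, and B4galt5 lay below control in 3 of 3 pairs at 12 h. The 12 h arrays differed from the same-numbered 4 h arrays by -0.42, -0.66 and -0.73, which placed it at 10 from the lowest of 8267 genes.

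B3gnt5 was furthest below control at 24 h, with smaller mean differences at 4 and 12 h. Its log2 ratios on replicates 1, 2 and 3 were -0.85, -0.66 and -0.74 in control cells. They were -0.91, -0.91 and -0.63 after 4 h. After 12 h they were -0.92, -0.85 and -0.85, and after 24 h -1.44, -1.47 and -1.03. All 3 arrays of 24 h lay below all arrays of every other group, while control, 4 h and 12 h arrays overlapped. The share of all genes that lay below every other group in this way was not computed, and the choice of B3gnt5 used these arrays. Arrays wholly below the controls at 24 h were found for 2.47% of all genes and wholly above for 2.01%. At 4 h and 12 h, 0 of the 3 members had arrays wholly on one side of the controls, against 3.81% of genes above and 6.33% below at 4 h, and 3.13% above and 4.14% below at 12 h. The mean difference from control was -0.06 at 4 h, -0.12 at 12 h and -0.56 at 24 h (SE 0.088 paired and 0.12 unpaired), the last corresponding to 0.678 of the control level. Within numbers the 4 h differences were -0.06, -0.25 and 0.12. Those at 12 h were -0.07, -0.18 and -0.10, below control in 3 of 3 pairs, as for 17.5% of all genes. The 24 h differences were -0.59, -0.81 and -0.29, and their mean placed B3gnt5 at 6 from the lowest of 8267 genes. From the same-numbered 4 h arrays, the 24 h arrays differed by -0.53, -0.56 and -0.40, a mean of -0.50. Only the paired fit called this difference, as it did for 4.05% of all genes. Since the choice used these arrays, nothing is read from that call.

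**Figure D1:**
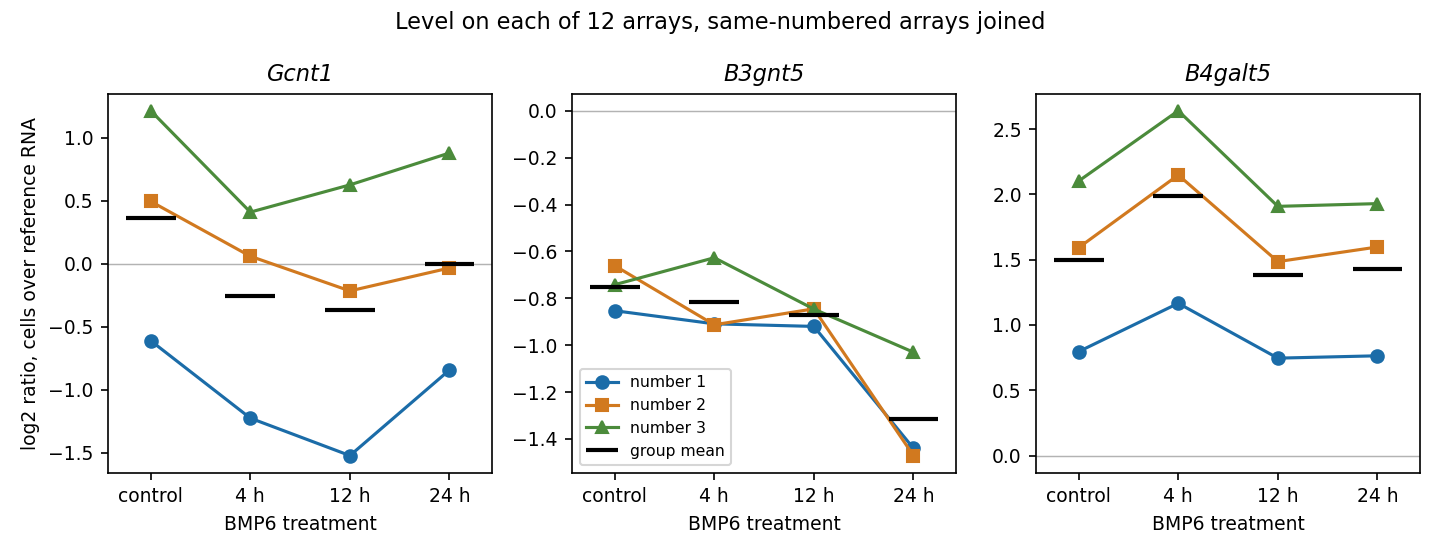
Log2 ratio of cells to reference RNA (y axis) for Gcnt1, B3gnt5 and B4galt5 on each of the 12 arrays by treatment group (x axis), with coloured lines joining arrays of the same replicate number and black bars for the group means (n = 3). In Gcnt1 and B4galt5 the 3 lines keep their order in every group, and in B3gnt5 the 24 h arrays lie between -1.47 and -1.03, below all others.

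**Figure D2:**
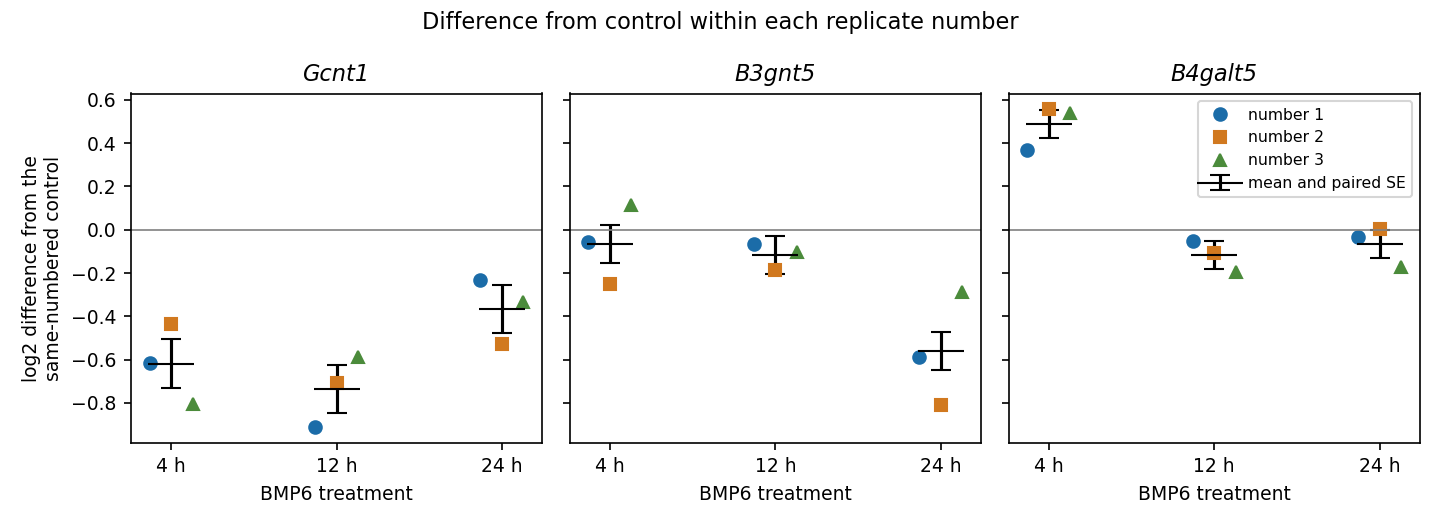
Log2 difference of each BMP6-treated array from the control array of the same number (y axis) at 4, 12 and 24 h (x axis), with coloured symbols for the 3 numbers and a bar with the paired SE for the mean. The lowest mean difference of Gcnt1 was at 12 h (-0.74) and of B3gnt5 at 24 h (-0.56), and the highest of B4galt5 was at 4 h (0.49).

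Over the 12 arrays, after centring on the replicate numbers, the levels of Gcnt1 and B4galt5 correlated with r = -0.234, those of Gcnt1 and B3gnt5 with r = 0.014, and those of B3gnt5 and B4galt5 with r = 0.301. Without centring, Gcnt1 and B4galt5 correlated with r = 0.801, as both followed the replicate number (descriptions over 12 arrays that share their numbers). By limma, with p adjusted over all 8267 genes by Benjamini-Hochberg and a threshold of 0.05, 0 of the 3 passed at any time in the unpaired fit, which called 0.169% of genes at 4 h (614 at an unadjusted p under 0.05) and 0% at 12 and 24 h (393 and 166). In the paired fit, Gcnt1 and B4galt5 passed at 4 h, where 6.02% of all genes did, Gcnt1 passed at 12 h, where 1.89% did, and B3gnt5 passed at 24 h, where 0.169% did. Since the choice used these contrasts, nothing is read from these counts. With 1 array left out and the block kept, the Gcnt1 difference ran from -0.73 to -0.50 at 4 h, from -0.84 to -0.63 at 12 h and from -0.46 to -0.25 at 24 h, that of B4galt5 at 4 h from 0.43 to 0.56, and that of B3gnt5 at 24 h from -0.67 to -0.48.

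Gcnt1 and B4galt5 differed widely between replicate numbers. The share between numbers is a part of a total that holds the treatment differences used in the choice, so it is not independent of the choice. The SD over all arrays and the share between groups hold these differences too. Gcnt1 had the highest SD over the 12 arrays of all 8267 genes, 0.85 against a median of 0.124, and B4galt5 ranked 13 with 0.611. The replicate number held 85.9% of the sum of squares of Gcnt1, 82% of that of B4galt5 and 13.2% of that of B3gnt5, against a median of 51.2% over all genes. A higher share than that of Gcnt1 was found in 352 genes, and than that of B4galt5 in 663. The mean of Gcnt1 over the 4 arrays of a number was -1.05, 0.08 and 0.78 for numbers 1, 2 and 3, and that of B4galt5 was 0.87, 1.71 and 2.15. The treatment group held 12%, 17% and 74.8% for Gcnt1, B4galt5 and B3gnt5. What same-numbered arrays share is not stated in the labels, so its part in these levels was not tested.

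**Figure D3:**
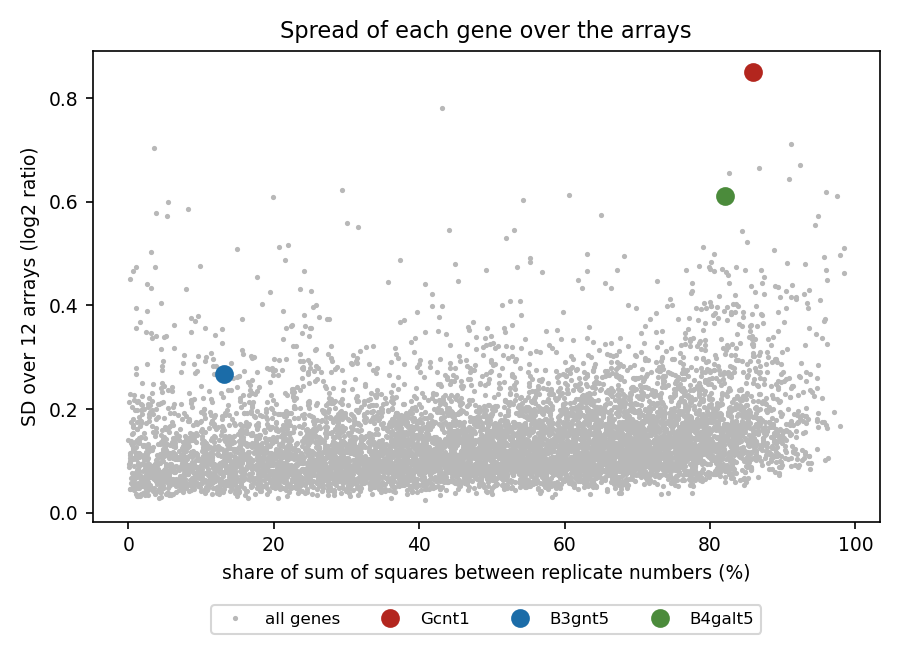
SD over the 12 arrays in log2 ratio (y axis) against the share of each gene's sum of squares that lies between replicate numbers in percent (x axis), with a grey point for each of 8267 genes. Gcnt1 has the highest SD (0.85), B4galt5 lies at 0.611 and 82%, and B3gnt5 at 0.267 and 13.2%.

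Genes with the most similar profile were found by Pearson r over the 12 arrays after centring on the replicate numbers, and each of these r is a description. For B4galt5 they were Vcl (vinculin, a focal adhesion protein, r = 0.977), Sh3pxd2b (0.966), Hmox1 (haem oxygenase, 0.964), Arhgap31 (0.961) and Snx9 (0.96), whose 4 h differences were 0.77, 0.37, 0.65, 0.31 and 0.32. For Gcnt1 they were Alox5ap (the activating protein of leukotriene synthesis, r = 0.973), Mcrip1 (0.969), Tpp1 (0.964), the glutathione transferase Mgst1 (0.961) and Vill (0.96). Alox5ap stood -0.41, -0.45 and -0.24 from control at 4, 12 and 24 h, and Mgst1 -0.51, -0.78 and -0.28. The differences of the others were smaller: -0.287, -0.345 and -0.179 for Vill, -0.176, -0.184 and -0.092 for Mcrip1, and -0.131, -0.146 and -0.082 for Tpp1. For B3gnt5 they were Bex4 (r = 0.921), the matrix protein Emilin3 (0.899), the tubulin Tuba1c (0.894), the NF-kappaB subunit Rela (0.891) and Nppa (0.891), with 24 h differences of -0.35, -0.34, -0.67, -0.11 and -0.11. Without centring, r with B4galt5 was 0.124 for Vcl, 0.421 for Sh3pxd2b, 0.75 for Hmox1, 0.72 for Arhgap31 and 0.802 for Snx9. With Gcnt1 it was -0.071 for Alox5ap, 0.1 for Mcrip1, 0.884 for Tpp1, 0.817 for Mgst1 and 0.518 for Vill, and with B3gnt5 it ran from 0.522 to 0.827.

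Of 13 enzymes fixed as the nearest neighbours of the 3 genes by role, 8 were measured. Among enzymes beside B4galt5, the glucosylceramide synthase Ugcg, which makes its acceptor, stood 0.08, 0.02 and -0.09 from control at 4, 12 and 24 h. The second lactosylceramide synthase B4galt6 stood at 0.16, -0.01 and -0.01, and B4galt1 at -0.02, -0.07 and 0.03. Among enzymes beside Gcnt1, the core 1 synthase C1galt1 stood at 0.004, 0.10 and 0.15, and Gcnt3, another core 2 enzyme, at 0.07, 0.05 and 0.07. The sialyltransferase St3gal1 stood at 0.09, -0.09 and -0.02, and St3gal4 at -0.08, 0.001 and -0.006. None of these 7 passed at any time in either limma fit (lowest adjusted p 0.138, for B4galt6 paired at 4 h). C1galt1c1, the chaperone that core 1 synthase needs, had log2 ratios of 0.37, 0.23 and 0.21 after 4 h, against 0.52, 0.36 and 0.59 in controls. It fell by 0.22 on the log2 scale in the paired fit only (adjusted p 0.0419; 0.418 unpaired), and that call was kept without 4 h replicate 1 and lost without each of the other arrays (highest adjusted p 0.153, without 4 h replicate 3).

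Over the 10 glycan lists, 88 of 184 listed genes other than the 3 members were measured. By limma without the block, 0 of the 88 passed at 4, 12 or 24 h (10, 7 and 1 at an unadjusted p under 0.05, and 0 adjusted by the methods' t-test at each time). In the paired fit 10 rose and 4 fell at 4 h (7 passed in all without control replicate 2 or without 4 h replicate 3, and 0 with all arrays of number 2 left out), 1 rose and 3 fell at 12 h, and 1 rose and 0 fell at 24 h. The median difference of the 88 genes at 4 h was 0.002 and that of all genes -0.006, where 2.27% of all genes rose and 3.75% fell in the paired fit. At 12 h 0.472% of all genes rose and 1.42% fell, and at 24 h 0.0726% rose and 0.0968% fell. The lists were drawn up by role with earlier results of these data known.

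Genes of heparan and chondroitin sulfate synthesis held 4 of the genes that rose at 4 h in the paired fit and 1 that fell, of 15 measured (median 4 h difference -0.003). Chst11, a chondroitin sulfotransferase, had log2 ratios of 0.47, 0.96 and 0.87 after 4 h, against 0.10, 0.08 and 0.28 in controls. Its 4 h arrays all lay above the controls, as did those of 3.81% of all genes. It rose by 0.61 (SE 0.086 paired, paired adjusted p 0.00323, unpaired 0.0646). Ext1, a heparan sulfate polymerase, rose by 0.32 (paired 0.00698, unpaired 0.695), the heparan sulfotransferase Hs6st1 by 0.32 (0.00994 and 0.0953) and Xylt2, which attaches the first sugar of these chains, by 0.30 (0.0346 and 0.904), each in 3 of 3 pairs. The dermatan sulfate epimerase Dse fell by 0.30 on the log2 scale (0.0452 and 0.266). With 1 of the 12 arrays left out at a time, the paired calls of Chst11, Ext1 and Hs6st1 passed in all 12 runs. That of Xylt2 passed only without control replicate 1, 4 h replicate 1 or 12 h replicate 2 (highest adjusted p 0.149), and that of Dse only without control replicate 2 or 4 h replicate 1 (highest 0.184).

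In the supply of nucleotide sugars, 2 of 13 measured genes rose and 1 fell at 4 h in the paired fit (median difference 0.069). Gfpt2, which feeds the hexosamine pathway, had log2 ratios of 1.03, 1.37 and 1.22 after 4 h, against 0.62, 0.88 and 0.82 in controls. Its 4 h arrays all lay above the controls, as did those of 3.81% of all genes. It rose by 0.43 (paired adjusted p 0.00198, unpaired 0.337). Ugdh, which makes UDP-glucuronic acid, rose by 0.38 (0.00446 and 0.754), and Ugp2, which makes the UDP-glucose that Ugdh uses, fell by 0.36 on the log2 scale (0.0107 and 0.192). The paired calls of Gfpt2 and Ugdh passed in all 12 runs with 1 array left out, and that of Ugp2 missed the threshold without control replicate 2 (0.0621).

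Among the mucin-type O-glycan enzymes, to which Gcnt1 belongs, 2 of the other 15 measured genes rose and C1galt1c1 fell (median 4 h difference 0.048). Galnt10, one of the enzymes that attach the first sugar, rose by 0.26 (paired adjusted p 0.0363, unpaired 0.353), and the sialyltransferase St6galnac4 by 0.29 (0.0244 and 0.149). The Galnt10 call passed only without control replicate 1, 4 h replicate 1 or 24 h replicate 2 (highest 0.137), and the St6galnac4 call missed the threshold without control replicate 2 (0.115), 4 h replicate 2 (0.108) or 4 h replicate 3 (0.0589). Of 10 other glycosphingolipid synthesis genes, 0 passed at any time in either fit (median 0.055 at 4 h), and the largest difference, -0.57 for the galactosylceramide synthase Ugt8a at 4 h, missed the threshold (paired adjusted p 0.309, unpaired 0.721).

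In the glycosphingolipid breakdown list, Smpd1, an acid sphingomyelinase that acts on a neighbouring sphingolipid, fell by 0.21 on the log2 scale at 4 h (paired adjusted p 0.0328, unpaired 0.379) and by 0.26 at 12 h (0.0315 and 0.554), and the lysosomal sulfatase Arsa fell by 0.36 at 12 h (0.0196 and 0.966), of 6 measured. The sulfotransferase Chst1 rose by 0.33 at 4 h in the list of sialyl and fucosyl capping (paired 0.0292, unpaired 0.715), 1 of 6 measured. Mgat3, which adds the bisecting sugar of N-glycans, fell by 0.41 on the log2 scale at 12 h (0.0444 and 1), 1 of 7 measured. Cemip, a protein of hyaluronan breakdown, rose by 0.42, 0.33 and 0.48 at 4, 12 and 24 h (paired 0.00792, 0.0492 and 0.0349, unpaired 0.422, 1 and 1), 1 of 3 measured, and was the gene of these lists that passed at 24 h. With 1 array left out, the Cemip call at 4 h passed in all 12 runs, that at 12 h only without 4 h replicate 3 (highest adjusted p 0.213, and 0.057 on median-centred arrays) and that at 24 h only without 4 h replicate 2 or 3 (0.212). Smpd1 passed at 4 h only without 4 h replicate 1 or 24 h replicate 3 (0.133) and at 12 h only without control replicate 3 or 4 h replicate 1 or 3 (0.176). Chst1 missed the threshold in 5 runs, those lacking control replicate 2 (0.119), control replicate 3 (0.0771) or one of the 4 h arrays (0.0555, 0.0968 and 0.119). Arsa missed it in 4 runs, those without control replicate 2 (0.0955) and those without each array of 12 h (0.0803, 0.121 and 0.0576). Mgat3 passed only without control replicate 1, 4 h replicate 2 or 3, or 24 h replicate 1 or 2 (0.167). In the list of poly-N-acetyllactosamine extension, 0 of 5 passed, and among lectins and glycan carriers 0 of 8, where Lgals1 had the largest 4 h difference (-0.20, paired adjusted p 0.433, unpaired 0.978).

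**Figure D4:**
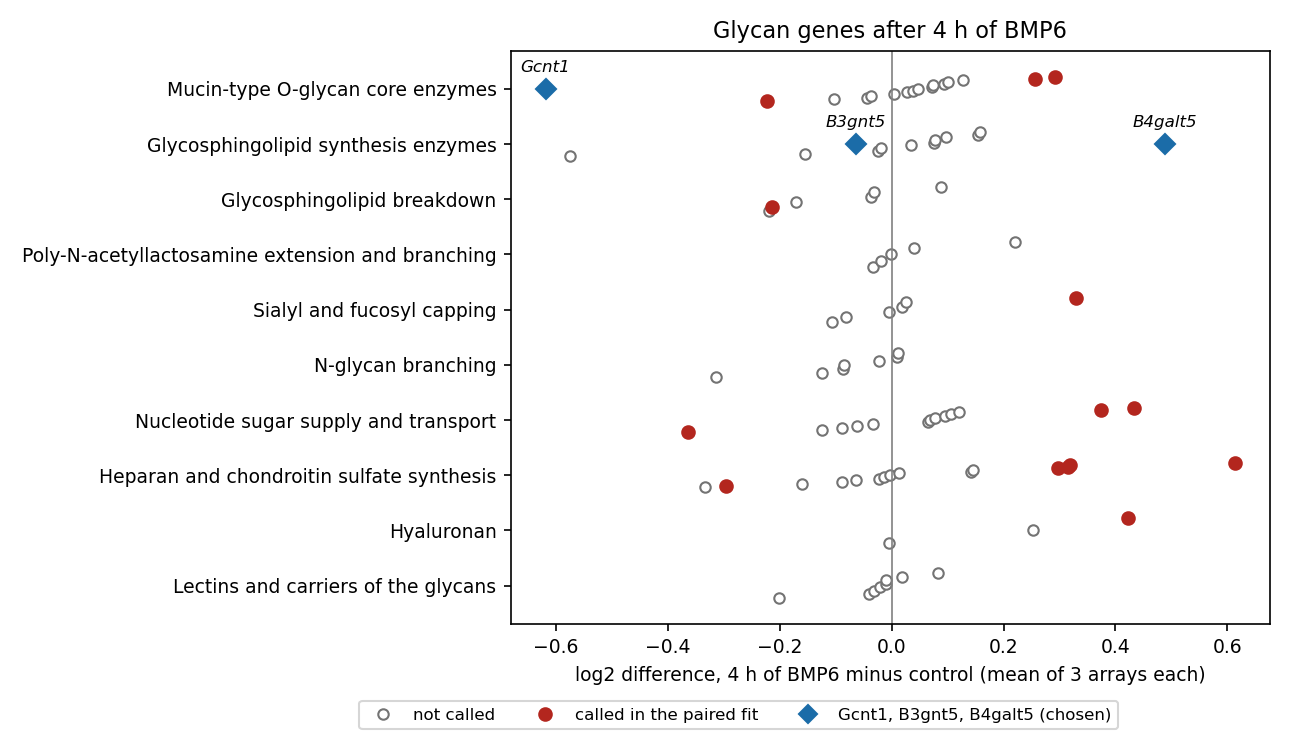
Log2 difference between 4 h of BMP6 and control (x axis, means of 3 arrays each) for the 88 measured genes of 10 glycan lists (y axis), filled red where called in the paired fit, with Gcnt1, B3gnt5 and B4galt5 as blue diamonds. Gcnt1 (-0.62) and B4galt5 (0.49), which were chosen for such differences, lie beyond the other genes of their lists (-0.22 at the lowest and 0.16 at the highest), and Chst11 (0.61) is the highest of the other genes.

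The 88 other glycan genes were also compared directly between 24 h and 4 h. The controls do not enter these differences, but they enter the shared estimate of the spread, and so the calls. In the paired fit 9 were lower at 24 h and 2 higher, against 2.2% of all genes lower and 1.85% higher (4.05% in either direction), and the median difference was 0.007, against 0.009 for all genes. In the unpaired fit 0 passed (12 at an unadjusted p under 0.05), where 0.0726% of all genes did. Of the 11, 8 had also been called against control at 4 h, and both comparisons use the 4 h arrays. Between 12 h and 4 h, 2 of the 88 were lower and 0 higher in the paired fit, where 1.29% of all genes passed (1.03% lower and 0.266% higher), and 0 passed in the unpaired fit, as did 0% of all genes (6 glycan genes and 368 of all at an unadjusted p under 0.05). B4galt5 itself differed by -0.56 between 24 h and 4 h (paired SE 0.064), a value the choice of members covers. Its paralogue B4galt4 had log2 ratios of 1.01, 1.27 and 1.26 at 24 h, against 1.33, 1.73 and 1.63 at 4 h. The difference was -0.38 (SE 0.067, paired adjusted p 0.0129, unpaired 0.681), although it had not passed against control at 4 h (0.22, paired adjusted p 0.0823, unpaired 0.905). Chst11, Gfpt2, Ugdh, Ext1, Hs6st1, Galnt10 and St6galnac4 were also lower at 24 h than at 4 h in the paired fit, with differences from -0.56 to -0.23, and Ugp2 was higher by 0.28 (adjusted p 0.0427). The remaining 2 lay outside the rule for named genes and were picked out after their values were seen. Man1a, a Golgi mannosidase that trims N-glycans, had log2 ratios of 0.99, 0.87 and 1.17 at 24 h, against 0.57, 0.64 and 0.78 at 4 h, a difference of 0.35 (SE 0.057, paired adjusted p 0.00959, unpaired 0.479). Has2, a hyaluronan synthase, had 0.06, -0.16 and -0.12 at 24 h, against 0.56, 0.16 and 0.21 at 4 h, a difference of -0.38 (SE 0.081, paired 0.0284, unpaired 0.362). Neither passed against control at 4 h (Man1a -0.13, paired adjusted p 0.239; Has2 0.25, paired 0.101).

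**Figure D5:**
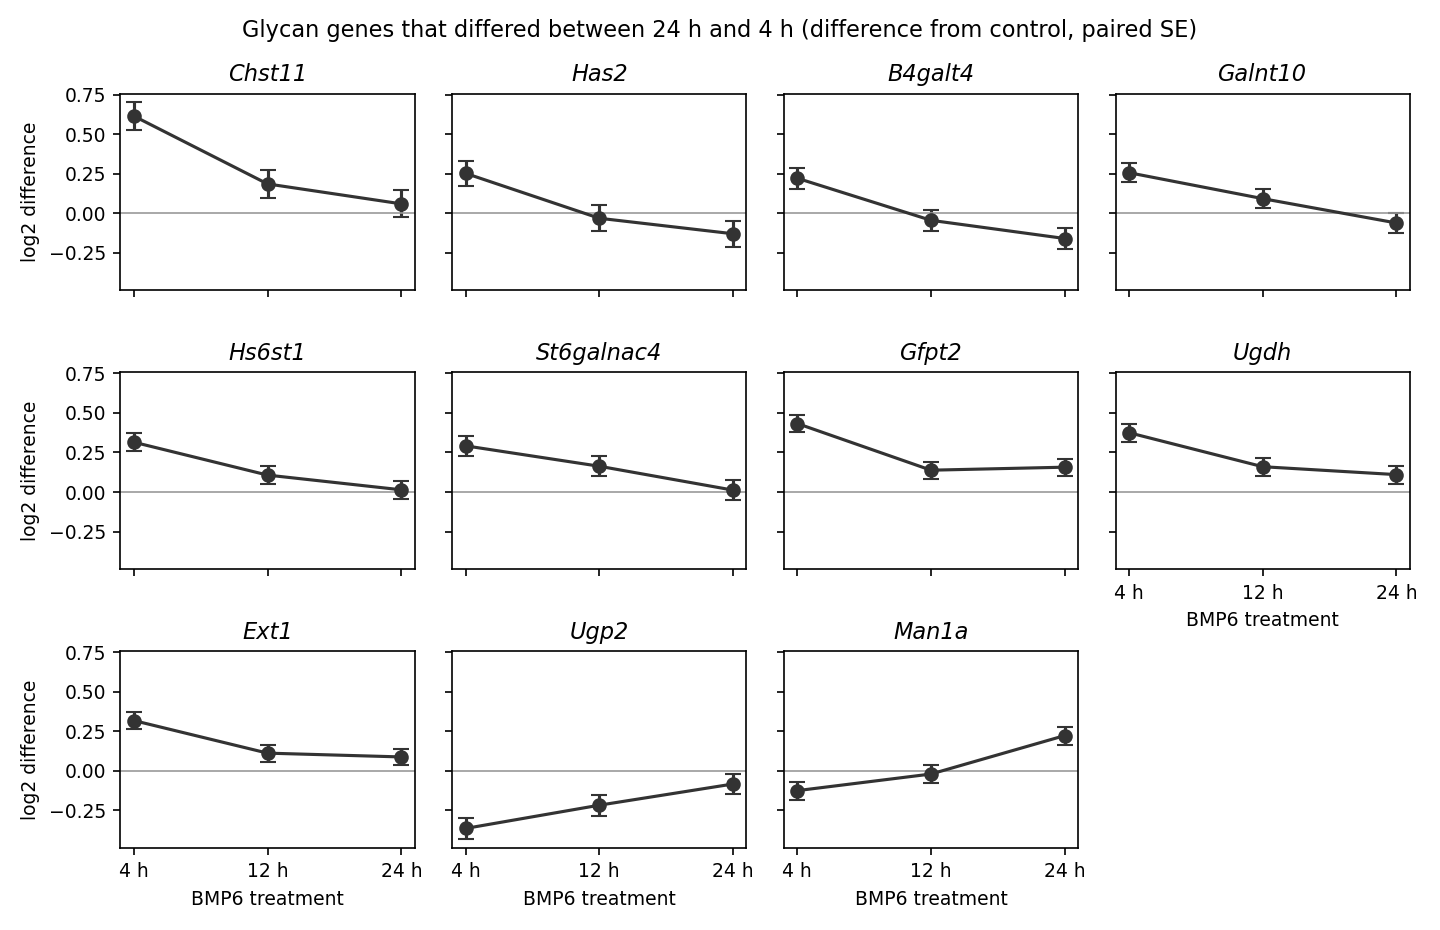
Log2 difference from control (y axis, mean of 3 pairs with paired SE) at 4, 12 and 24 h of BMP6 (x axis) for the 11 of 88 other glycan genes that were called between 24 h and 4 h in the paired fit. Ugp2 and Man1a were higher at 24 h than at 4 h and the other 9 lower, as in Chst11 (0.06 at 24 h against 0.61 at 4 h) and B4galt4 (-0.16 at 24 h against 0.22 at 4 h).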

How the data were processed

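The deposited table holds 20280 value rows on 12 arrays, with no missing value. Per the labels, the authors scanned 2-colour Agilent mouse arrays, quantified them with GenePix Pro and normalized them by a modified local quantiles method. The deposited values were taken as log2 ratios. No spot intensities were used, so no statement is made on detection and no filter on dim probes was possible. Precision is limited by how many arrays there are.

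Names were taken from a platform table of 11083 probes (10576 with 1 symbol, 507 with several and not named), updated by gene identifier against RefSeq for 10548. Probes were placed on a grid of 215 by 105 positions read from the opposite corner, and a gene's probes averaged, giving 8267 genes. The members, lists and tests were chosen with earlier results of these data known. Genes named were the 3 members, their 13 neighbours, listed genes called in either fit, the gene of each list with the largest 4 h difference, 5 genes most like each member, and Id1, Id2 and Id3. Man1a and Has2 lay outside this rule.

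Two-sided tests used lmFit and eBayes of limma 3.58.1 under R 4.3.3 (Benjamini-Hochberg adjusted over all genes, threshold 0.05) on all 12 arrays, with and without the replicate number as a block, and were tested on simulated data. Arrays were paired by the number in their titles: every same-numbered correlation of deviations exceeded 0.1. The methods' t-test, other normalizations, filters and left-out arrays were tried as alternatives.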

Additional observations from a re-analysis of the deposited data

Results flagged for a closer look

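B4galt5 stood above the same-numbered control on all 3 arrays of 4 h and below it on all 3 arrays of 12 h. The difference between these effects was -0.605 on the log2 scale. B4galt5 was among the genes that the paired fit over all genes called for this contrast, and not in the unpaired fit, but it was chosen with these values known, so nothing is read from that and no independent test of the difference was made.

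Among the other glycan genes, effects at 2 times differed in the paired fit by limma (adjusted p under 0.05 over all genes), while none of these differences passed in the unpaired fit (adjusted p from 0.13 to 0.999). For 12 h against 4 h, the difference was -0.295 for Gfpt2 and -0.429 for Chst11 (paired adjusted p 0.0411 and 0.0458). For 24 h against 4 h it was -0.275 for Gfpt2, -0.555 for Chst11, -0.265 for Ugdh, -0.229 for Ext1 and -0.300 for Hs6st1. It was 0.281 for Ugp2, -0.279 for St6galnac4, -0.318 for Galnt10, -0.381 for B4galt4, 0.348 for Man1a and -0.382 for Has2. Over all genes, 4.05% passed for 24 h against 4 h and 1.29% for 12 h against 4 h. With 1 of 12 arrays left out, the 24 h against 4 h calls passed in 10 runs for Chst11 (highest adjusted p 0.0505, without 24 h replicate 2), 10 for Man1a (0.052, without 24 h replicate 1), 9 for B4galt4 (0.0803, without 24 h replicate 3), 8 for Gfpt2 (0.107, without 4 h replicate 2), 8 for Hs6st1 (0.0977, without 24 h replicate 2), 7 for Galnt10 (0.0954, without 24 h replicate 3), 7 for Has2 (0.132, without 24 h replicate 2), 6 for Ugdh (0.142, without 4 h replicate 2), 5 for St6galnac4 (0.178, without 24 h replicate 2), 4 for Ugp2 (0.167, without 24 h replicate 3) and 3 for Ext1 (0.178, without 24 h replicate 2). The 12 h against 4 h calls passed in 3 runs for Gfpt2 and 4 for Chst11 (highest 0.22 and 0.238, both without 12 h replicate 3).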

How the results depend on the processing

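The replicate block left every difference of Gcnt1, B3gnt5 and B4galt5 as it was (-0.618, -0.562 and 0.488 at 4, 24 and 4 h) and changed the SE. With every number in every group, the block could not change a difference. Quantile normalization and median centring moved none of them beyond the SD of the 3 pairs. At 4, 12 and 24 h the unpaired fit called 14, 0 and 0 genes and the block 498, 156 and 14. For the other glycan genes these were 0, 0 and 0, and 14, 4 and 1. With the block and all arrays of number 1 left out the counts were 364, 15 and 3 for all genes and 7 glycan genes at 4 h. With number 3 left out they were 139 and 92 at 4 and 12 h and 3 glycan genes at 4 h, and with number 2 left out 20, 3 and 0 at 4, 12 and 24 h, with 0 glycan genes at each time (20, 9 and 2 at an unadjusted p under 0.05). Other settings without the block gave, at 4 h, 27 genes after quantile normalization, and 0 by the methods' t-test and with only the 2 groups fitted. At 12 h, 2 passed among genes with an SD at or above the median, where the paired count of glycan genes was 2.

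With single arrays left out, the unpaired count at 4 h ran from 3 (control replicate 1 or 2 or 4 h replicate 3) to 51 (4 h replicate 1), with 1 glycan gene at most, and the paired counts from 208 (control replicate 2) to 642 at 4 h, 22 (12 h replicate 2) to 288 (control replicate 3) at 12 h and 2 (24 h replicate 2) to 16 at 24 h. Those of glycan genes in the paired fit ran from 7 to 14, 0 to 4 and 0 to 1. Without the block, leaving out single arrays (which unbalances the numbers) or whole numbers, Gcnt1 ran from -1.106 to -0.131, -1.234 to -0.161 and -0.853 to 0.059 at 4, 12 and 24 h. B4galt5 ran from 0.138 to 0.897, -0.467 to 0.200 and -0.417 to 0.266, turning sign at 12 h without control replicate 3 (0.186) or 12 h replicate 1. Gcnt1 turned sign at 24 h without control replicate 3 or 24 h replicate 1 (0.057). With the block kept, B3gnt5 at 12 h took the values -0.035 (control replicate 2 left out), -0.196 (control replicate 3) and -0.050 (12 h replicate 3). In the deposited row order the rows at these names gave -0.067, -0.111 and -0.002 for Gcnt1 and 0.028 and 0.018 for B4galt5 at 4 and 12 h. For B3gnt5 they gave -0.014 and -0.005 at 12 and 24 h.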
